A study of Mus musculus with 9 samples.

Results

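Alpha- and beta-tubulin are the building blocks of microtubules, and mice carry several genes, called isotypes, for each of them. The 10 isotype genes described here were taken by gene symbol from the annotation of the array, out of 19505 genes with a measured signal and 20 tubulin genes: Tuba1a, Tuba1b, Tuba1c, Tuba4a and Tuba8 for alpha-tubulin, and Tubb2a, Tubb2b, Tubb4b, Tubb5 and Tubb6 for beta-tubulin. All 10 were measured, each by 1 probe set (the group of probes summarised into a single value), so that no choice between rows was needed. The members were thus chosen by symbol, with earlier results of these data known. The family was taken up after a lower Tuba1a signal in iCM hearts had been seen in these data. The iCM minus saline difference of Tuba1a is therefore described without a test, and so is its iCM-Ex minus iCM difference, which rests on the same iCM arrays. Counts of called genes and the figures still include Tuba1a, and nothing is read from its calls.

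The samples were peri-infarct myocardium of female SCID mice, a strain without functional T and B lymphocytes, aged 80 to 100 days. All mice, controls included, had an acute infarct from ligation of the left anterior descending coronary artery, and hearts were taken 4 weeks later, when the border zone was dissected free of scar core and distant muscle. The mice had received exosomes precipitated from stem-cell-derived cardiomyocytes (iCM-Ex), the cardiomyocytes themselves (iCM, differentiated from induced pluripotent stem cells until they beat) or saline, with 3 biological replicates per group and 1 array each. Neither the species of the injected cells, nor their dose, nor how many remained at 4 weeks was stated in the labels.

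Alpha- and beta-tubulin pair into dimers that add to and leave the ends of microtubules, and the isotypes differ mostly in their acidic tails, which carry the modifications that motors and other proteins read. In heart muscle cells microtubules run through a dense lattice, carry RNA, protein and organelles, and resist shortening of the cell, and a denser or more detyrosinated network is known from failing hearts. Fibroblasts, endothelial cells and leukocytes of the border zone also hold microtubules. In a piece of tissue, fewer cells of a type and less RNA per cell cannot be told apart.

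The promoters of 5 isotype genes are shown as a description. Tuba1a is shown as the gene that led to the family. Tuba1b, Tuba1c, Tubb5 and Tubb4b were called between iCM-Ex and iCM hearts, as was Tubb2a, which is not shown. The choice thus follows the iCM arrays that led to the family, and nothing is read from it. The promoters are the 250 bases before the annotated start from RefSeq (build GRCm38.p6), written 5′ to 3′ on the strand of the gene. RefSeq promoters were matched for 8 of the 10 genes by symbol. Capitals mark matches, on either strand, to 5 promoter elements. CCAAT is the CCAAT box, read by NF-Y. The GC box, read by Sp factors, was searched as GGGCGG. The TATA box was searched as TATAAA. The E-box was searched as CACGTG. The cAMP response element was searched as TGACGTCA. The intervals are chr15:98953502-98953751 on the minus strand for Tuba1a, chr15:98934391-98934640 on the minus strand for Tuba1b, chr15:99029641-99029890 on the plus strand for Tuba1c, chr17:35838302-35838551 on the minus strand for Tubb5 and chr2:25224703-25224952 on the minus strand for Tubb4b.
Tuba1a: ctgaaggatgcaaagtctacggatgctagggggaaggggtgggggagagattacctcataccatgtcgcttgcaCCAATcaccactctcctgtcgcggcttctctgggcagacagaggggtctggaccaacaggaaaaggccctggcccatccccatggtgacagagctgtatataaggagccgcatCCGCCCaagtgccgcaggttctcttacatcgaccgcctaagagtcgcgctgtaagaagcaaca
Tuba1b: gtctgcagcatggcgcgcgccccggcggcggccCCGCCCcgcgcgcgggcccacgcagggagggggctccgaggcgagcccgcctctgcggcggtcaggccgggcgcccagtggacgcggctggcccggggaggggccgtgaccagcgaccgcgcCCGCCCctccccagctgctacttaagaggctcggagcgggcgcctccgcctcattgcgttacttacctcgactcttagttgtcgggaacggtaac
Tuba1c: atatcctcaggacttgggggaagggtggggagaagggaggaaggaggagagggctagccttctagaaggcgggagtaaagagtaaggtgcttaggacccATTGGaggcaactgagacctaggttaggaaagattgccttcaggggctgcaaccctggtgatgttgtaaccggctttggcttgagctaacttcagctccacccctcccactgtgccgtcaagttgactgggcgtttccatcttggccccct
Tubb5: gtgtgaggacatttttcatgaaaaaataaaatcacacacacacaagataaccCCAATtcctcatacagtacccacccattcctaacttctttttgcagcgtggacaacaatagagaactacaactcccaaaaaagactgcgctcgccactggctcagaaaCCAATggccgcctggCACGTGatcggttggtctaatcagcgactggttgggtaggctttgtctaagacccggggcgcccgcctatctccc
Tubb4b: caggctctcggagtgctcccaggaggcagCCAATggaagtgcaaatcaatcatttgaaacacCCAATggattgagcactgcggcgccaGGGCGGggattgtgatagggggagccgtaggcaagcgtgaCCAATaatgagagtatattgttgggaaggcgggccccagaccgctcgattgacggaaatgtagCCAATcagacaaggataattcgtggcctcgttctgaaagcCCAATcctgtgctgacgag
No element was found in all 5. The CCAAT box was found in 4 of the 8 matched isotype promoters, against 33.8% of 32851 promoter windows of the same length, and the GC box in 5 of 8, against 32.7%. Tubb4b held 5 copies of the CCAAT box, at 221, 188, 122, 59 and 19 bases before the start, and 1 GC box, and 0.213% of all windows held at least 5 CCAAT boxes. The minimum of 5 was taken from the Tubb4b count itself, so this share is no test of rarity. Tuba1a held 1 CCAAT box and 1 GC box, Tuba1b 2 GC boxes, Tuba1c 1 CCAAT box, and Tubb5 2 CCAAT boxes and 1 E-box. The E-box lay in 2 of 8 promoters (6.02% of all windows), the TATA box in 1 (12.4%) and the cAMP response element in 1 (1.55%), the last 2 both in Tubb2a. A match is a string of letters, and binding was not measured.

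Values below are the authors' log2 signals, on which a difference of 1 is a doubling. Differences come from a limma fit over all 9 arrays and 19505 genes, carry a moderated standard error (SE), and were called at a Benjamini-Hochberg adjusted p of 0.05. Isotype sequences are much alike, and how far a probe set also reads a sister gene was not tested. Signals of different genes are not compared with each other, since each probe set has its own brightness. Where nothing else is said, the spread is that between the 3 arrays of a group. The family was taken up after low Tuba1a signals on the iCM arrays. In comparisons with iCM hearts, p-values of the other isotype genes are therefore not independent of that choice.

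After injection of cardiomyocytes, the isotype genes had lower signals than after saline, and the genes of the alpha-tubulin cluster Tuba1a, Tuba1b and Tuba1c and of the beta-tubulin Tubb5 had the largest differences. Tuba1a, Tuba1b, Tuba1c and Tubb5 were also higher after exosomes than after cardiomyocytes. Exosome and saline hearts did not differ past the threshold in any of the 10 genes. All 3 comparisons share arrays: iCM minus saline and iCM-Ex minus iCM share the iCM arrays, so their values stand side by side and are no independent evidence of each other.

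**Figure D1:**
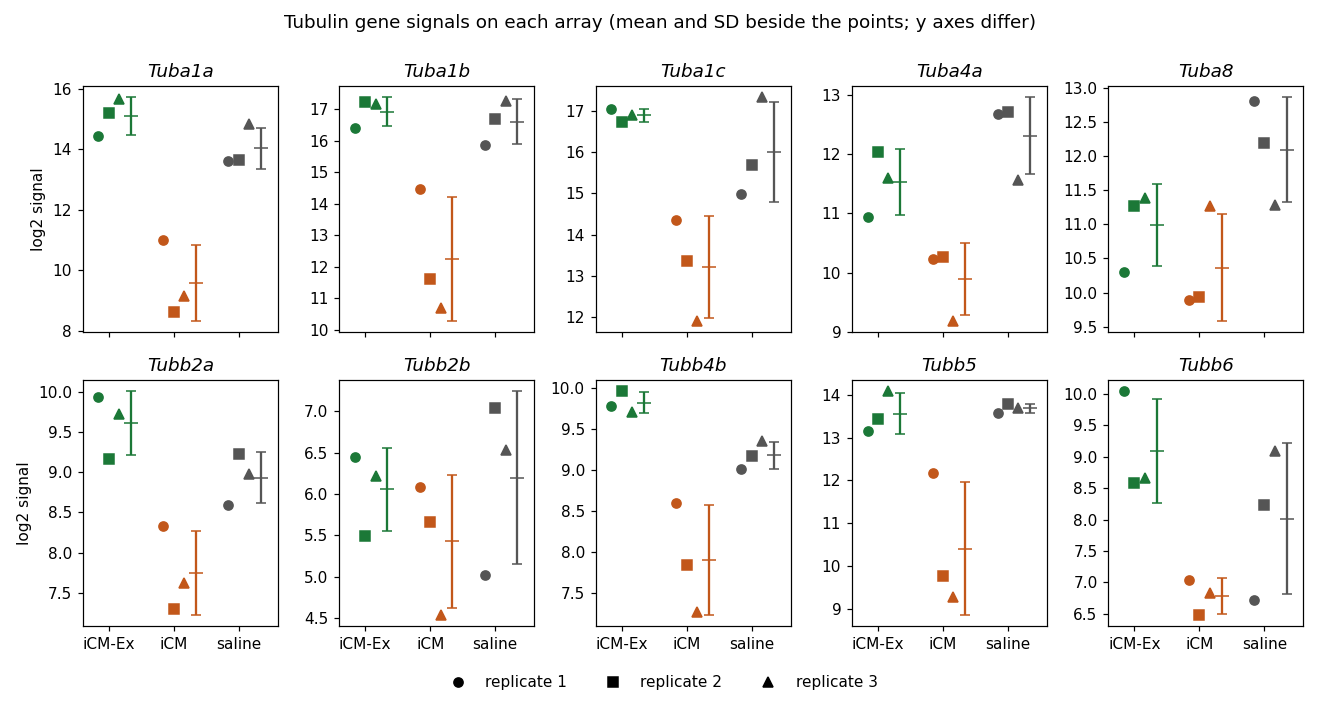
Log2 signal of each tubulin isotype gene (panels, each with its own y axis) on the 3 arrays of iCM-Ex, iCM and saline hearts, with symbols for the replicates and a bar for the mean and SD. All 3 iCM arrays lie below all saline arrays for 8 genes, and the exceptions are Tubb2b and Tubb6.

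Tuba1a encodes an alpha-tubulin best known from developing neurons. Its signal was 14.43, 15.18 and 15.67 in iCM-Ex hearts, 11.004, 8.61 and 9.14 in iCM hearts, and 13.62, 13.65 and 14.82 in saline hearts. Every iCM array was below every other array, while iCM-Ex and saline arrays overlapped. The iCM mean was 4.44 ± 0.61 below the saline mean (log2, SE), a signal 21.8-fold lower, and the iCM-Ex mean was 5.51 ± 0.61 above the iCM mean. The iCM-Ex mean of 15.09 ± 0.62 and the saline mean of 14.03 ± 0.68 (SD, n = 3 each) differed by 1.06 ± 0.61 (limma adjusted p = 0.447).

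Tuba1b encodes the alpha-tubulin found in most cell types. It had 16.40, 17.23 and 17.16 in iCM-Ex hearts, 14.47, 11.60 and 10.68 in iCM hearts, and 15.87, 16.71 and 17.26 in saline hearts. The iCM arrays were again the 3 lowest, and iCM replicate 1 stood closer to the other groups than iCM replicates 2 and 3 did. In iCM hearts it fell by 4.37 ± 0.81 relative to saline (limma adjusted p = 0.021), 20.6-fold. It was 4.68 ± 0.81 higher in iCM-Ex than in iCM hearts (limma adjusted p = 0.0373). Of all genes Tuba1b was the one most like Tuba1a over the arrays, so both p-values are tied to the choice of the family. The iCM-Ex minus saline difference was 0.32 ± 0.81, with a 95% interval of −1.48 to 2.11 (limma adjusted p = 0.891).

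Tuba1c, a close relative of both in sequence, had 17.04, 16.73 and 16.89 in iCM-Ex hearts, 14.36, 13.36 and 11.92 in iCM hearts, and 15.00, 15.68 and 17.33 in saline hearts. The groups iCM and saline did not overlap, but iCM replicate 1 and saline replicate 1 were less than 1 unit apart. The gene fell by 2.79 ± 0.66 in iCM relative to saline hearts (limma adjusted p = 0.0482) and was 3.68 ± 0.66 higher in iCM-Ex than in iCM hearts (limma adjusted p = 0.0386). Against saline, iCM-Ex hearts differed by 0.89 ± 0.66 (limma adjusted p = 0.581), and the iCM-Ex arrays had an SD of 0.155 against 1.20 in saline.

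Tuba1b, Tuba1a and Tuba1c follow each other on mouse chromosome 15 in the order of protein-coding genes in the RefSeq gene table. Other kinds of gene were not looked at. The protein-coding genes next to the row on either side are Lmbr1l, a regulator of Wnt signalling in lymphocytes, and Prph, an intermediate filament gene of peripheral neurons. Prph had mean signals of 4.14 in iCM-Ex, 4.10 in iCM and 4.63 in saline hearts, and its iCM minus saline difference was −0.53 (limma adjusted p = 0.351). Lmbr1l had 5.25, 5.47 and 5.68 in the same groups, and its iCM minus saline difference was −0.21 (limma adjusted p = 0.785). Both lay near the negative control probe sets, whose median averaged 4.86 in iCM-Ex, 5.31 in iCM and 5.29 in saline hearts.

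Tuba4a and Tuba8 are the alpha-tubulins that are prominent in striated muscle, and Tuba4a is encoded without the terminal tyrosine of the other common alpha-tubulins. Tuba4a had 10.94, 12.04 and 11.59 in iCM-Ex hearts, 10.22, 10.26 and 9.18 in iCM hearts, and 12.67, 12.70 and 11.57 in saline hearts. It fell by 2.43 ± 0.44 in iCM relative to saline hearts (limma adjusted p = 0.0204), and here the iCM-Ex arrays lay between the other groups, overlapping with saline. Its iCM-Ex minus iCM difference was 1.64 ± 0.44 (limma adjusted p = 0.109) and its iCM-Ex minus saline difference −0.79 ± 0.44 (limma adjusted p = 0.434).

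Tuba8 had 10.30, 11.27 and 11.39 in iCM-Ex hearts, 9.89, 9.94 and 11.26 in iCM hearts, and 12.81, 12.18 and 11.28 in saline hearts. Its iCM arrays lay below the saline arrays by a margin of 0.02 at the nearest pair, iCM replicate 3 and saline replicate 3. The differences were −1.73 ± 0.50 for iCM minus saline (limma adjusted p = 0.0871) and −1.10 ± 0.50 for iCM-Ex minus saline (limma adjusted p = 0.334). Unlike for the other alpha isotypes, iCM replicate 3 was the highest of the iCM arrays for Tuba8. The markers of cardiomyocytes were highest on the same array, with a mean of 18.43, against 17.28 and 17.01 on the other iCM arrays, and their part in the value was not tested.

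Tubb5 encodes a beta-tubulin of most cells that is abundant in dividing ones. It had 13.16, 13.44 and 14.08 in iCM-Ex hearts, 12.18, 9.76 and 9.28 in iCM hearts, and 13.56, 13.79 and 13.69 in saline hearts. The saline arrays lay close together (SD 0.112), and all iCM arrays were below them. The gene fell by 3.28 ± 0.63 in iCM relative to saline hearts (limma adjusted p = 0.024), 9.69-fold. It was 3.16 ± 0.63 higher in iCM-Ex than in iCM hearts (limma adjusted p = 0.0492), while iCM-Ex minus saline was −0.12 ± 0.63, with an interval from −1.52 to 1.28 (limma adjusted p = 0.953).

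Tubb2a and Tubb4b, beta-tubulins of neurons and of many other cells, the second also of cilia, moved over a narrower range. Tubb4b had 9.79, 9.97 and 9.71 in iCM-Ex hearts, 8.61, 7.84 and 7.27 in iCM hearts, and 9.02, 9.17 and 9.35 in saline hearts. Its groups followed the order iCM-Ex, saline, iCM with no overlap between any of them. It was 1.92 ± 0.34 higher in iCM-Ex than in iCM hearts (limma adjusted p = 0.0386). The iCM-Ex minus saline difference was 0.64 ± 0.34 (limma adjusted p = 0.411) and the iCM minus saline difference −1.28 ± 0.34 (limma adjusted p = 0.0679).

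Tubb2a had 9.93, 9.17 and 9.73 in iCM-Ex hearts, 8.33, 7.30 and 7.62 in iCM hearts, and 8.60, 9.23 and 8.98 in saline hearts. The iCM arrays were below all others, and iCM-Ex and saline overlapped. It was 1.86 ± 0.35 higher in iCM-Ex than in iCM hearts (limma adjusted p = 0.0399). The iCM minus saline difference was −1.18 ± 0.35 (limma adjusted p = 0.0894).

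Tubb6, a beta-tubulin that rises in regenerating skeletal muscle of mice, had 10.04, 8.58 and 8.66 in iCM-Ex hearts, 7.04, 6.48 and 6.84 in iCM hearts, and 6.72, 8.24 and 9.09 in saline hearts. Saline replicate 1 lay within the iCM range, so these groups overlapped, while all iCM-Ex arrays were above all iCM arrays. The iCM-Ex minus iCM difference was 2.31 ± 0.58 (limma adjusted p = 0.0921). Tubb2b is a beta-tubulin mainly of the nervous system, next to Tubb2a in the order of protein-coding genes. It had 6.45, 5.49 and 6.22 in iCM-Ex hearts, 6.09, 5.66 and 4.54 in iCM hearts, and 5.02, 7.04 and 6.53 in saline hearts. Its groups all overlapped, its signals were the closest of the 10 to the negative controls, and no difference passed the threshold (limma adjusted p = 0.474 for iCM minus saline).

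**Figure D2:**
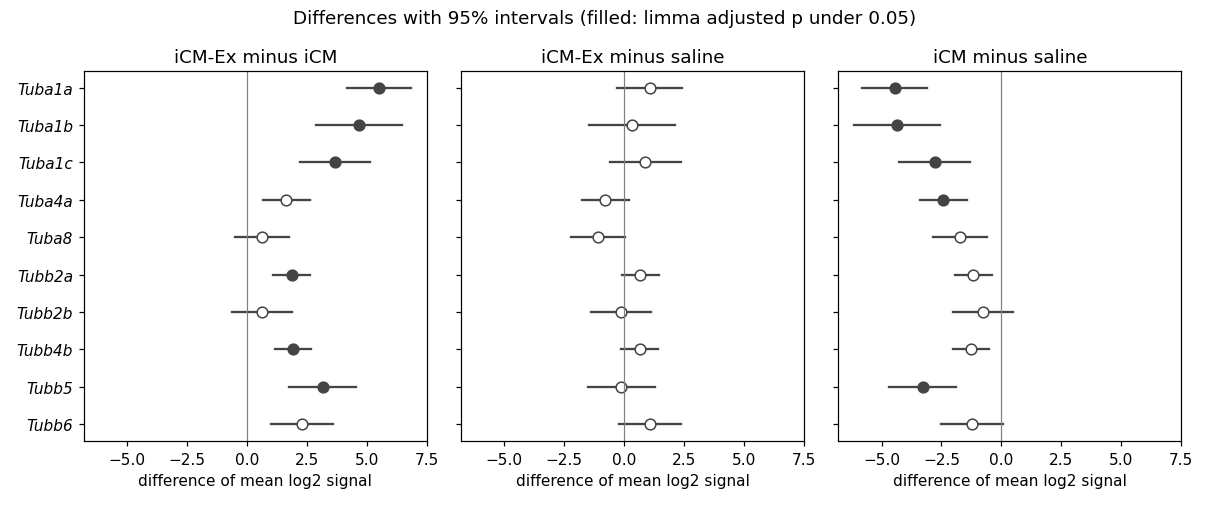
Difference of mean log2 signal for the 10 isotype genes in the 3 comparisons, with 95% intervals from the limma fit and filled points for a limma adjusted p under 0.05. All points lie right of 0 for iCM-Ex minus iCM and left of 0 for iCM minus saline, and every interval of iCM-Ex minus saline includes 0.

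Counted together, 10 of 10 isotype genes were lower in iCM than in saline hearts, with a median difference of −2.08, against 44.5% of all 19505 genes and a median of 0.08. The 5 genes Tuba1a, Tuba1b, Tuba1c, Tuba4a and Tubb5 fell, where 3.67% of all genes were called in this comparison and 2.33% fell. For 8 genes every iCM array was below every saline array, as for 10.2% of all genes. Since the fall of Tuba1a led to the family, nothing is read from these counts. Bright genes were more often lower in iCM hearts. Among the 1587 genes with an overall mean above 11, the median difference was −0.41 and 9.14% fell, and the median of the 6 isotype genes in that range was −3.03.

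The count of 5 rested on single arrays. It was 1 without saline replicate 2 or iCM replicate 2 (Tuba1a, the gene that led to the family, in both cases), 2 without saline replicate 3, and 3 without saline replicate 1 or iCM replicate 3. The highest limma adjusted p on leaving out an array was 0.0832 for Tuba1b, 0.123 for Tuba1c, 0.0867 for Tuba4a and 0.0918 for Tubb5, with changes that ranged from −5.48 to −3.58, −3.36 to −2.13, −2.80 to −2.07 and −4.16 to −2.71.

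Between iCM-Ex and iCM hearts, 10 of 10 isotype genes were higher in iCM-Ex, with a median difference of 2.11, against −0.04 over all genes. The 6 genes Tuba1a, Tuba1b, Tuba1c, Tubb2a, Tubb4b and Tubb5 were called as higher, where 1.07% of all genes were called and 0.795% were higher. For 8 genes every iCM-Ex array lay above every iCM array, as for 10.2% of all genes. The count was 0 without iCM-Ex replicate 2 or 3, when 0 and 1 of all genes were called. It was 1 without saline replicate 2, iCM replicate 2 or iCM replicate 3, and 3 without iCM-Ex replicate 1. The median difference stayed between 1.93 and 2.35 over the 9 omissions. Among the 1587 bright genes with an overall mean above 11, the median difference was 0.45 and 4.91% were called as higher, and the median of the 6 isotype genes there was 3.42. Tuba1a is among the 6 calls and the iCM arrays are those that led to the family, so nothing is read from these counts either.

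Between iCM-Ex and saline hearts 0 of 10 isotype genes passed the limma threshold, and 0 had an unadjusted p under 0.05, where 0.349% and 15.2% of all genes did. The median difference was 0.48, against 0.04 over all genes. Tubb4b was the gene whose iCM-Ex arrays all lay above the saline arrays, as did 12.2% of all genes. The intervals allow changes of up to 2.41 for Tuba1a and 2.37 for Tubb6, and down to −2.22 for Tuba8, so equal levels are not shown.

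A test of any difference among the 3 groups, limma's moderated F, called 7 of the 10 genes and 3.32% of all genes. These were the 6 genes called between iCM-Ex and iCM and Tuba4a. The count holds Tuba1a and rests in part on the iCM arrays, and nothing is read from it. The limma adjusted p of the F test was 0.146 for Tuba8, 0.101 for Tubb6 and 0.625 for Tubb2b.

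Likeness between genes was measured as the mean absolute difference of their log2 signals over the 9 arrays, each gene centred on its own mean, as a description with no test. Of all other genes tested, the one most like Tuba1a was Tuba1b, at 0.556. The next were Cops9, a COP9 signalosome subunit (0.563), the growth factor gene Igf1 (0.631), Tmem47, a membrane protein gene of cell junctions (0.688), and Cyb5r3, a reductase (0.688). The gene most like Tuba1b was Igf1, at 0.405, and Tuba1a came 4th. The other 8 isotype genes had no isotype among their 5 most alike genes. Among the isotypes, Tubb2a and Tubb4b were nearest to each other at 0.308, followed by Tubb2a with Tubb6 (0.456) and the muscle isotypes Tuba4a and Tuba8 (0.535). From Tuba4a, Tuba8 ranked 152 among all genes, and from Tuba8, Tuba4a ranked 661. Tuba1a and Tubb2b were the farthest apart, at 1.99. Genes of larger range lie farther apart on this measure by construction, and all pairs share the same arrays.

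**Figure D3:**
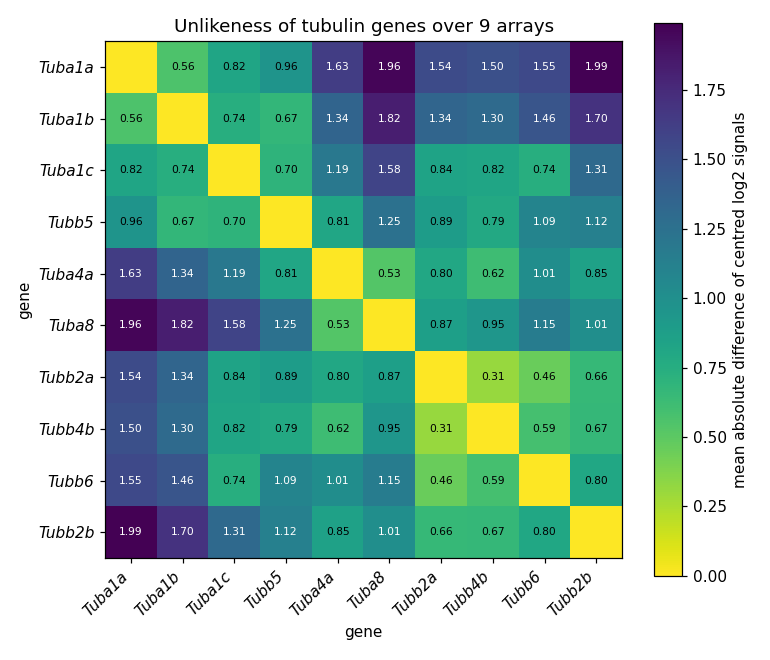
Mean absolute difference of centred log2 signals over 9 arrays for each pair of isotype genes, with yellow for alike and dark for unlike. Tuba1a, Tuba1b, Tuba1c and Tubb5 lie within 0.56 to 0.96 of each other, Tuba4a and Tuba8 at 0.53, and Tubb2a, Tubb4b and Tubb6 within 0.31 to 0.59.

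Of the 3 pairs in the alpha-tubulin row, 2 overlapped between iCM and saline hearts. Tuba1a minus Tuba1c, a difference of 2 probe sets whose level has no meaning of its own, lay between −4.75 and −2.78 on the iCM arrays and between −2.51 and −1.38 on the saline arrays. Tuba1a minus Tuba1b overlapped between these groups, at −3.47 to −1.54 in iCM and −3.06 to −2.25 in saline hearts. Tuba1b minus Tuba1c also overlapped, at −1.77 to 0.11 in iCM and −0.06 to 1.03 in saline hearts. Tuba4a minus Tuba1a was −4.08 to −3.14 on the iCM-Ex arrays and −0.78 to 1.65 on the iCM arrays, the 2 genes having different ranges. These pairs were picked after the values were seen.

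The other genes of the microtubule system were counted from lists of known members, also chosen with earlier results of these data known. A further 10 tubulin genes (Tuba3a, Tuba3b, Tubal3, Tubb1, Tubb3, Tubb4a, Tubd1, Tube1, Tubg1 and Tubg2) had 0 members past the limma threshold in any comparison and a median iCM minus saline difference of 0.07. Their levels were low, with array means over the list between 4.98 and 5.62. The gamma-tubulins Tubg1 and Tubg2, which seed microtubules, and Tubb4a had every iCM-Ex array above every iCM array, as did 10.2% of all genes. Tubb4a had 6.25, 6.31 and 6.49 in iCM-Ex hearts, 5.13, 5.74 and 5.75 in iCM hearts, and 5.07, 5.81 and 5.80 in saline hearts. Its iCM-Ex arrays thus lay above the saline arrays too, as did 12.2% of all genes, with a difference of 0.79 (limma adjusted p = 0.256). Tubg1 had 5.93, 6.17 and 6.36 in iCM-Ex hearts, 4.72, 4.74 and 5.42 in iCM hearts, and 5.76, 5.64 and 6.48 in saline hearts. The iCM minus saline difference was −1.0 for Tubg1 (limma adjusted p = 0.116) and −1.0 for Tubg2 (limma adjusted p = 0.156), and the iCM-Ex minus iCM differences were 1.20 and 1.22 (limma adjusted p = 0.112 and 0.146).

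Of 21 measured chaperonin, prefoldin and cofactor genes that fold tubulin, 5 were lower and 16 higher in iCM than in saline hearts, with a median of 0.53, where 44.5% of all genes were lower. In iCM-Ex relative to saline hearts 4 were lower and 17 higher, with a median of 0.44, where 46.5% of all genes were lower (both comparisons share the saline arrays). Between iCM and saline 3 rose and 1 fell, against 3.67% of all genes called. Tbca, a cofactor that holds beta-tubulin during folding, had 11.23, 11.53 and 10.71 in iCM hearts, against 9.04, 8.85 and 9.08 in saline hearts. It rose by 2.17 ± 0.35 (limma adjusted p = 0.0133, and 0.0621 without saline replicate 2, which with iCM replicate 2 was the array whose omission lost the call). The prefoldin subunit genes Pfdn1 and Pfdn2 rose by 1.49 and 1.98, and Tcp1, a subunit of the chaperonin that folds actin and tubulin, fell by 1.72. These 3 calls were lost on leaving out 5 to 7 of the 9 arrays in turn, with limma adjusted p of up to 0.137. Pfdn1 and Tcp1 are named because the calls are few, after their values were seen. Between iCM-Ex and iCM hearts 11 of 21 were lower, and Pfdn5 was called, 2.43 ± 0.39 higher in iCM-Ex (limma adjusted p = 0.0294, and up to 0.17 without single arrays). The list mean was 9.91 to 10.05 on iCM-Ex arrays, 9.80 to 9.95 on iCM arrays and 9.15 to 9.48 on saline arrays.

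Of 17 measured genes that modify tubulin, 2 fell in iCM relative to saline hearts, where 2.33% of all genes fell, and the list median was −0.08. Ttll1, a glutamylase that adds glutamate chains to tubulin tails, had 6.68, 6.94 and 7.09 in iCM hearts, against 9.06, 8.33 and 9.41 in saline hearts. It fell by 2.02 ± 0.33 (limma adjusted p = 0.0133) with a highest limma adjusted p of 0.0485 when single arrays were omitted. Sirt2, a deacetylase of alpha-tubulin and other proteins, fell by 2.47 ± 0.51 (limma adjusted p = 0.0298, and up to 0.0777 without single arrays). None of the 33 microtubule-associated genes passed the threshold, with a median of −0.03.

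Of 17 nucleation genes and 30 motor genes 1 each was called between iCM and saline, shares near the 3.67% of all genes, and nothing is read from them for the lists. Haus2, an augmin subunit that branches microtubules, fell by 1.27 ± 0.30 in iCM relative to saline hearts (limma adjusted p = 0.0453) and was 2.37 ± 0.30 higher in iCM-Ex than in iCM hearts (limma adjusted p = 0.0126). The first call was lost on leaving out any 1 of the 9 arrays, and the second without iCM-Ex replicate 2 or 3 (limma adjusted p = 0.0919 and 0.0927). The motor gene was Dynll2, a dynein light chain gene, which rose by 1.84 ± 0.40 in iCM hearts (limma adjusted p = 0.0367, and up to 0.119 without single arrays). None of 14 genes of actins, desmin and other filaments passed the threshold, with a median of −0.06. Of these lists, 0 genes were called between iCM-Ex and saline hearts.

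**Figure D4:**
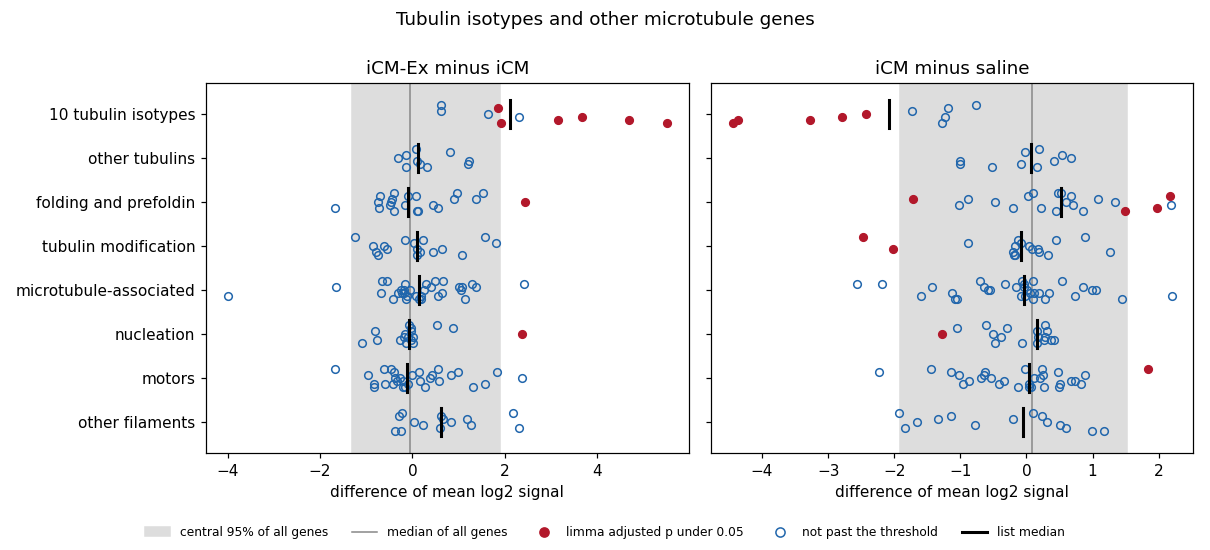
Difference of mean log2 signal for the 10 isotype genes and the other lists of microtubule genes, for iCM-Ex minus iCM and iCM minus saline, with the list median as a black bar and the central 95% of all genes shaded. The isotype medians, 2.11 and −2.08, stand beside other list medians from −0.12 to 0.61 and −0.08 to 0.53. The shading shows the spread of single genes and is no range for a list median.

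The arrays differed in other ways that moved with the isotype genes. Control separation, the median positive minus the median negative control signal of an array, was 3.63 to 4.01 in iCM-Ex, 2.47 to 3.21 in iCM and 3.26 to 3.56 in saline hearts. With it as a covariate 0 isotype genes were called in any comparison, 33 genes of all being called between iCM and saline, while the median iCM minus saline difference was −2.05. The lowest separation was on iCM replicate 2, and the lowest mean over the isotypes was on iCM replicate 3, at 8.77. The separation ranges of the 3 groups did not overlap, so separation and treatment cannot be told apart.

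Markers of other cells were checked with lists of the same origin. All 9 measured fibroblast markers were lower in iCM than in saline hearts, with 0 past the limma threshold, where 44.5% of all genes were lower and 2.33% fell. The fibroblast marker mean was 15.00 to 15.72 on iCM-Ex arrays, 12.77 to 15.10 on iCM arrays and 13.93 to 15.70 on saline arrays. Macrophage markers had means of 12.67 to 13.14, 9.67 to 11.37 and 9.28 to 12.94 in these groups, and cardiomyocyte markers means of 16.53 to 17.26, 17.01 to 18.43 and 17.03 to 17.97. The part of fibroblasts, macrophages and cardiomyocytes in the isotype values was not tested.

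Lung markers had a mean of 11.45 on iCM replicate 1 and 8.59 on iCM-Ex replicate 3, against 4.26 to 4.87 in saline. Fast muscle and fat markers had means of 12.94 and 10.18 on iCM replicate 2, against at most 7.11 and 6.60 in saline. On iCM replicate 3 these lists were at 4.89, 6.90 and 6.63, the lung and fat means being just above the highest saline means of 4.87 and 6.60. The fat marker Fabp4, a fatty acid carrier named after its values were seen, was at 18.33 on that array, against at most 15.72 in saline. It was above saline on every iCM and iCM-Ex array, at 16.10 to 19.86, and so is not particular to iCM replicate 3. On iCM replicate 3 the fat markers Cidea and Pparg were also above saline, but Adipoq, Plin1, Cidec, Ucp1, Lep and Retn were not. The part of such tissue in the isotype values of single arrays was not tested. Without the 3 arrays that carried such markers, the iCM minus saline difference was −4.89 for Tuba1a, −5.93 for Tuba1b and −4.40 for Tubb5, and 1 isotype gene, Tubb5, was called (limma adjusted p = 0.0431). That fit has 1 iCM array, whose spread is taken to be that of the other groups. Markers of ciliated airway cells, rich in tubulin, had means of 4.32 to 4.99 on all arrays. Markers of neurons had means of 4.53 to 4.61 on iCM-Ex arrays, 4.13 to 4.36 on iCM arrays and 4.58 to 4.70 on saline arrays. The iCM arrays were thus the lowest. Of the 10 neuron markers 6 were lower and 4 higher in iCM than in saline hearts, and 1, Uchl1, fell. Of all genes 44.5% were lower and 2.33% fell, and nothing is read from the neuron counts. Both list means lay near the negative controls. Single markers did not, as Stmn2 of neurons was at 7.68 to 8.62 and Tppp3 of ciliated cells at 7.53 to 8.35 in saline. On the iCM arrays Stmn2 was at 7.18, 4.54 and 5.05, all below saline, and Tppp3 at 9.26, 6.94 and 7.41. Neither passed the limma threshold. The part of neurons in the isotype values was not tested.

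**Figure D5:**
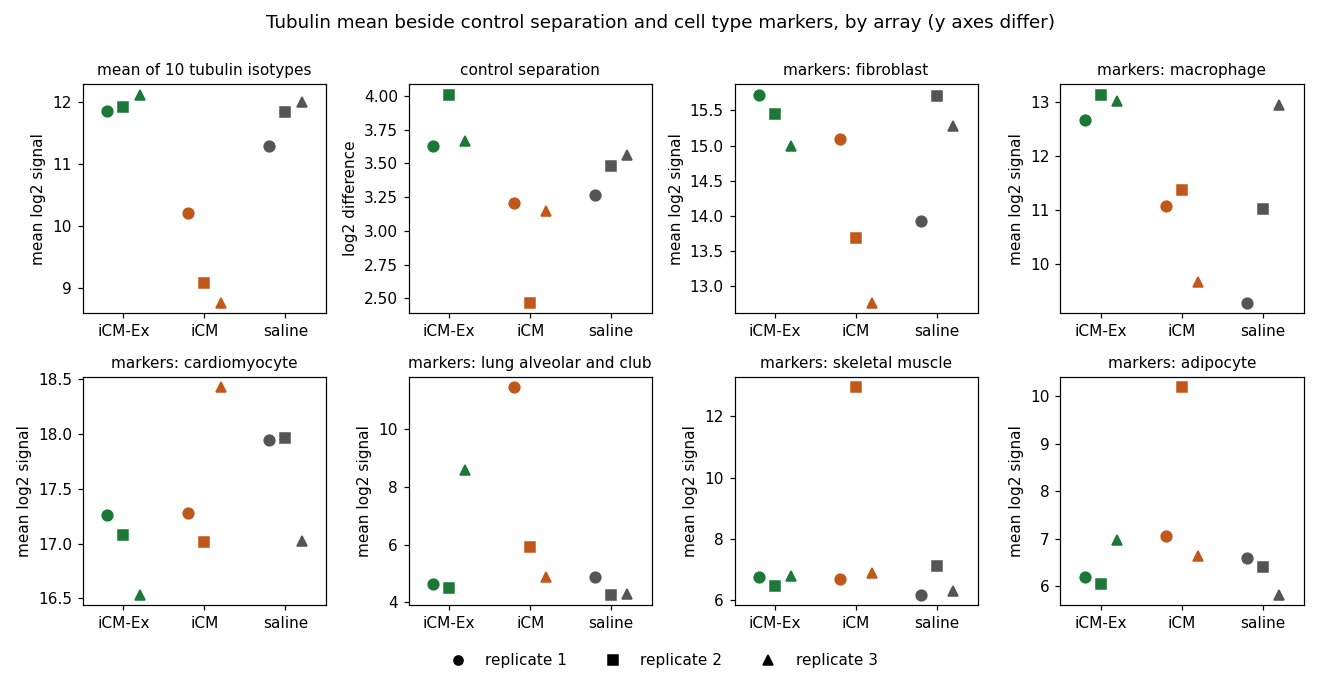
Mean of the 10 isotype genes, control separation and the means of 6 marker lists on each array of iCM-Ex, iCM and saline hearts (panels with their own y axes, symbols for replicates). The isotype mean is 11.85 to 12.11, 8.77 to 10.22 and 11.29 to 11.99 in the 3 groups, and lung, muscle and fat markers stand out on single arrays.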

How the data were processed

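RNA of peri-infarct heart tissue from 9 mice was measured on Clariom S arrays with 5.5 µg of labelled cDNA, per the labels' protocols. The submitters' processing notes name Affymetrix Expression Console, and the authors deposited a log2 signal for every probe set on every array. No source used here states the program's version or how it corrected background or normalised. That the scale is log2 follows from the range of the values (2.25 to 19.93).

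Of 28846 rows 6640 were controls. The 19572 rows with 1 symbol in the platform annotation gave 19505 genes, the brightest row being kept where a gene had several, and all matched RefSeq symbols by Entrez identifier. A limma fit (version 3.58.1 in R 4.3.3) with a mean per group gave each contrast, with Benjamini-Hochberg adjustment over 19505 genes. It was tested on simulated data. Tests with 3 against 3 arrays cannot give an exact two-sided permutation p below 0.1, and 9 arrays limit the precision throughout.

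The isotype genes and gene lists were chosen with earlier results of these data known. All 10 isotype genes are named. From the lists, the 2 called genes with the largest change per contrast, the further tubulin genes and the 5 genes most like Tuba1a are named. The labels call the replicates biological without naming animals, so p-values measure the spread between these samples. Alternatives covered normalisation, filtering, the samples and terms of the fit, and omission of each array.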

Additional observations from a re-analysis of the deposited data

How the results depend on the processing

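Over 20 alternative settings, all 10 isotype genes kept a lower iCM than saline signal, and the median difference stayed within the spread between arrays in every comparison. The number of isotype genes called was less stable. For iCM minus saline it was 5, and 2 when only these 2 groups were fitted, 0 with control separation as a covariate and 1 without the 3 arrays that carried lung, muscle or fat markers. For iCM-Ex minus iCM it was 6, and 1 with only these groups, 3 with an intensity trend in the variance prior, 0 with the covariate and 0 without the 3 arrays. For the F test it was 7, and 4 with the trend, 0 with the covariate and 0 without the 3 arrays. The cause was not tested, beyond the fewer samples of the smaller fits. Leaving out each array in turn gave 1 to 6 calls for iCM minus saline, 0 to 6 for iCM-Ex minus iCM and 1 to 6 for the F test.

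The replicate numbers of the groups did not pair the arrays, since correlations of same-numbered deviations ran from −0.26 to 0.07. With the number as a replicate block, 2, 1 and 1 isotype genes were called for iCM minus saline, iCM-Ex minus iCM and the F test. For iCM-Ex minus saline 0 were called in every setting. There the sign turned for Tuba1b, to −0.32 with the covariate and −0.055 without saline replicate 1 (range over omitted arrays −0.055 to 0.64). It turned for Tubb2b, to 0.28, 0.025 and 0.14 without saline replicate 2, saline replicate 3 and iCM-Ex replicate 2 (range −0.73 to 0.28), and for Tubb5, to 0.080 without iCM-Ex replicate 1 (range −0.38 to 0.080). For iCM-Ex minus iCM it turned for Tuba8, to −0.47 without the 3 arrays. None of these differences had passed the threshold. Over all genes, 716 were called for iCM minus saline, 68 for iCM-Ex minus saline, 208 for iCM-Ex minus iCM and 647 by the F test. These counts were 1500, 1187, 559 and 2108 with array weights, 338, 0, 18 and 205 with the replicate block, 33, 5, 0 and 74 with the covariate, and 6, 0, 0 and 0 without the 3 arrays. The intensity trend gave 12 for iCM-Ex minus saline, 118 for iCM-Ex minus iCM and 418 for the F test. Fits of only the groups compared gave 279, 1 and 13 for the 3 contrasts, and for iCM-Ex minus iCM centring on the median gene gave 327 and genes above the median level 352. Tubb2b signals lay close to the negative controls, which limits what can be said of it.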
